A study of Mus musculus with 9 samples.

Results

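The ryanodine receptor calcium release complex of the heart was followed through 8 genes, Ryr2, Fkbp1b, Jph2, Jph1, Trdn, Asph, Casq2 and Hrc, in mice with an edited Rbm20 gene. Every row of the deposited table of exonic parts that carries the symbol of one of these genes was taken, which gave 283 parts under 8 of 54660 gene identifiers. An exonic part is a piece of an exon bounded by annotated exon edges. Hearts of mice aged 12 weeks were compared in 3 genotypes, homozygous for a CRISPR/Cas knock-in allele of Rbm20 with a frameshift (c.1121_1122delAG, p.Q374Rfs), heterozygous for it, or wild-type, with 3 libraries each. No other allele or treatment is named in the labels, and strain and sex are not given there. The labels do not say whether the libraries of a group came from different mice, so every p-value measures the spread between libraries, which may be partly technical.

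In a heart muscle cell, calcium that enters through the T-tubule opens ryanodine receptors in the facing membrane of the sarcoplasmic reticulum. The calcium they release starts contraction. Ryr2 encodes the cardiac release channel and Fkbp1b the small immunophilin that binds it. The junctophilins Jph2 and Jph1 hold the T-tubule and reticulum membranes together. Triadin (Trdn) and junctin (a short product of Asph) tie the channel to calsequestrin. Casq2 encodes the cardiac calsequestrin that buffers calcium inside the store, and Hrc encodes a histidine-rich calcium-binding protein of the same store. Asph also encodes a long enzyme, aspartyl and asparaginyl beta-hydroxylase, and Trdn encodes several proteins that differ at their C-terminal end, so the ends of both transcripts decide which protein is made. Rbm20 encodes an RNA-binding protein of striated muscle that represses exons in many transcripts, Ryr2 and Trdn among its known targets.

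The sequences of 3 short exons of the complex follow, 5′ to 3′ on the coding strand. Each has 30 bases of the neighbouring exons on each side in lower case and the exon itself in capitals. They were taken from GENCODE M21 transcripts, matched to the parts by exon length and spacing, with positions given on GRCm39 as in the deposited table. The exon of 24 bases in Ryr2 (part 32, chr13:11649193-11649216, minus strand) is the part of the complex whose inclusion changed, and it is shown with the junction that skips it. In GENCODE it belongs to the partial coding transcript Ryr2-207 and is absent from the full-length transcript. It would add 8 residues if read in frame. The exon of 18 bases in Trdn (part 29, chr10:33209228-33209245, plus strand) and that of 42 bases in Asph (part 30, chr4:9624360-9624401, minus strand) are cassette exons of the long triadin tail and of the stretch just before the junctin end.
Ryr2 with the exon: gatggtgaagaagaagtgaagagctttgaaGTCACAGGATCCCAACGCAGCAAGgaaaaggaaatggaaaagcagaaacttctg
Ryr2 without it: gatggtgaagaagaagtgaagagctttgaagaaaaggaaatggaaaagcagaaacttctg
Trdn: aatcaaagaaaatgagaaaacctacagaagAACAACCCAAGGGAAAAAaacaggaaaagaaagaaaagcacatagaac
Asph: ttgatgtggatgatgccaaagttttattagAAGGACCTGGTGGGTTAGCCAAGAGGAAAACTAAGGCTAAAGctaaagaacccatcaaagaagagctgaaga

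The libraries were deep and alike in size, with 297 to 323 M inclusion reads and 52.6 to 62.3 M exclusion reads each (1 M is 1000000 reads). Rbm20 itself had 51.8 to 66.0 CPM (inclusion reads summed per gene, per 1000000 reads after TMM scaling) in the homozygous libraries, 68.4 to 90.2 CPM in the heterozygous ones and 104 to 132 CPM in the wild-type ones. All 5 measured cardiomyocyte markers were abundant, with a summed level of 62920 to 71210 CPM in homozygous, 50540 to 57760 CPM in heterozygous and 51070 to 61690 CPM in wild-type libraries. Heterozygous library 3 stood apart in atrial markers (Myl7, Myl4, Sln and Nppa), which summed to 2062 CPM there and to at most 99.9 CPM in the other heterozygous libraries, against at most 545 CPM in homozygous and at most 176 CPM in wild-type libraries. Nppa made up nearly all of the homozygous sum, with a mean of 481 CPM. Whether atrial tissue in that library bears on its values was not tested, and the main Ryr2 values are given without it as well. Reads also thinned towards the 5′ end to differing degrees, which is taken up with Ryr2. In bulk RNA, fewer cells of a type and less RNA per cell cannot be told apart.

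The first question was which parts of the complex changed their inclusion level. The percent spliced in (PSI) is the share of transcripts that include a part, from 0 to 1. Of the 283 parts, 35 were variable and deep enough to test (16 in Trdn, 12 in Asph, 6 in Ryr2 and 1 in Jph2), so Casq2, Jph1, Fkbp1b and Hrc had 0 tested. In homozygous against wild-type hearts 1 of the 35 was called by limma (a PSI shift of 0.1 or more with an adjusted p under 0.05), the 24-base Ryr2 exon, against 0.413% of all 55648 parts tested. The same part was the 1 called in homozygous against heterozygous hearts, where 0.264% of all parts were called, and 0 were called in heterozygous against wild-type hearts, where 0.0755% of all parts were called. At an unadjusted p under 0.05 there were 10 of the 35 in homozygous against wild-type hearts (7.69% of all parts), 6 in homozygous against heterozygous hearts (6.93%) and 1 in heterozygous against wild-type hearts (4.04%). Some of the 35 parts are not independent, such as Trdn parts 2 to 4, which share the same exclusion reads. The PSI differences of the 35 parts in homozygous against wild-type hearts had a median of 0.0117, with 20 above 0, beside a median of 0.00346 over all parts tested.

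The 24-base exon of Ryr2 was included in a minority of transcripts in every genotype, and most often in homozygous hearts. Its PSI was 0.360, 0.382 and 0.340 in the homozygous libraries, 0.0485, 0.0586 and 0.0488 in the heterozygous ones, and 0.0254, 0.0248 and 0.0188 in the wild-type ones. All 3 homozygous libraries lay far above the others, and all 3 heterozygous libraries lay above the 3 wild-type ones by a small step. The difference was 0.34 between homozygous and wild-type hearts (SE 0.0173, limma adjusted p = 2.06e-05), 0.31 between homozygous and heterozygous hearts (SE 0.0173, adjusted p = 4.88e-05) and 0.0289 between heterozygous and wild-type hearts (adjusted p = 0.968). The heterozygous mean therefore did not sit midway: it lay 0.14 below the midpoint of the other groups (SE 0.015, adjusted p = 0.00796), and this was the 1 part of the complex called for that contrast, where 0.149% of all parts were called. The call was lost when heterozygous library 1, 2 or 3 or wild-type library 2 was left out (adjusted p from 0.0512 to 0.0793), while the heterozygous mean still lay 0.14 below the midpoint in each case. Without heterozygous library 3 the homozygous difference from heterozygous hearts was 0.31 (adjusted p = 0.000844). The library names carry running numbers in 2 separate ranges, whose meaning is not given. In the lower range (all homozygous libraries, heterozygous 1 and 2 and wild-type 1), the homozygous difference was 0.34 from wild-type (adjusted p = 0.0274) and 0.31 from heterozygous hearts (adjusted p = 0.0653). Wild-type is a lone library there and is assumed to vary like the other groups.

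Both kinds of read behind this PSI differed. Inclusion reads on the exon were 1.97, 1.45 and 1.74 CPM in the homozygous libraries, 0.384, 0.279 and 0.377 CPM in the heterozygous ones, and 0.216, 0.170 and 0.181 CPM in the wild-type ones. Junction reads that skip it were 3.01, 2.02 and 2.90 CPM in the homozygous libraries, 6.48, 3.85 and 6.33 CPM in the heterozygous ones, and 7.11, 5.75 and 8.12 CPM in the wild-type ones. The homozygous libraries were thus the highest for inclusion and the lowest for skipping, with no overlap with either other group. These CPM are not corrected for the amount of Ryr2 RNA at this site. The exons on either side (parts 31 and 35) had log2 density ratios of -0.76 and -0.85 in homozygous over wild-type hearts. As raw depth, 420 to 612 inclusion and 586 to 935 exclusion reads stood behind each homozygous value, 90 to 120 and 1245 to 2015 behind each heterozygous value, and 53 to 67 and 1797 to 2466 behind each wild-type value. Set against the rest of the gene by edgeR's usage test, the exon was 3.92 log2 units higher in homozygous than in wild-type hearts (adjusted p = 7.67e-15) and 2.79 higher than in heterozygous hearts (adjusted p = 5.5e-08).

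**Figure D1:**
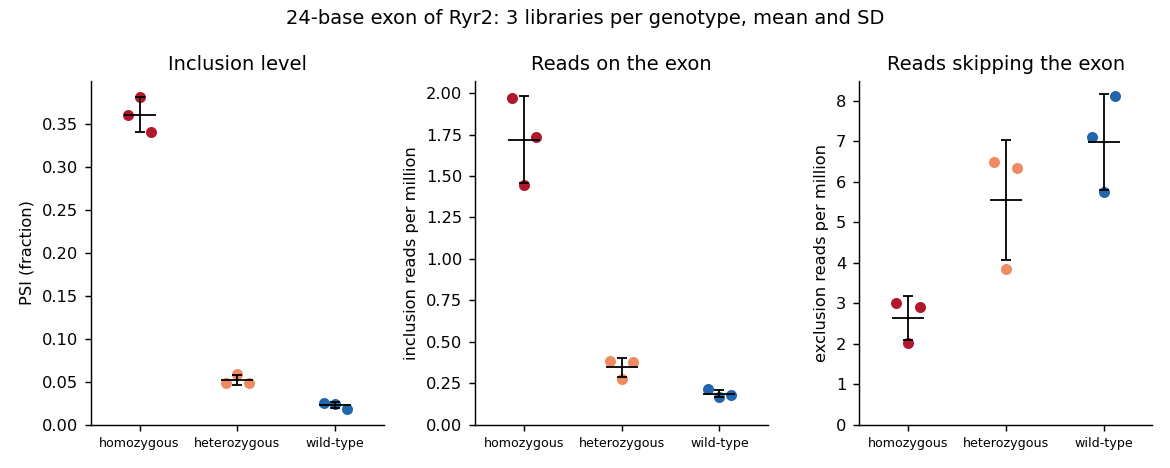
Inclusion level (PSI, a fraction), inclusion CPM and exclusion CPM of the 24-base Ryr2 exon, with 1 point per library and the mean and SD of 3 libraries for homozygous, heterozygous and wild-type hearts. The homozygous PSI values lie between 0.340 and 0.382, above heterozygous values of at most 0.0586 and wild-type values of at most 0.0254.

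The exons next to it were included almost fully in every genotype. The exon 3′ of it in the transcript (part 31, 100 bases) had a PSI of 1 in all 3 homozygous libraries, at least 0.9986 in the heterozygous ones and at least 0.9988 in the wild-type ones. The exon 5′ of it (part 35, 54 bases) also had a PSI of 1 in the homozygous libraries, and at least 0.998 in the heterozygous and 0.999 in the wild-type ones. Part 33, a stretch of 955 bases that GENCODE lists in a retained-intron transcript beside part 35, had a PSI of 0.0312 ± 0.00242 in homozygous, 0.017 ± 0.00436 in heterozygous and 0.0134 ± 0.00342 in wild-type hearts (SD, n = 3 each). That was under the level set for testing. Its inclusion CPM were 0.963, 0.779 and 1.07 in homozygous, 0.619, 0.634 and 0.896 in heterozygous and 0.892, 0.630 and 0.599 in wild-type libraries, which overlap. Of the other 5 tested Ryr2 parts, part 98, annotated as the end of a retained-intron transcript, had the smallest p, with a difference of 0.07 in homozygous against wild-type hearts (adjusted p = 0.502). Its inclusion reads were 228 to 243 in homozygous, 204 to 267 in heterozygous and 204 to 250 in wild-type libraries, so the higher fraction rested on fewer skipping reads. Short coding exons elsewhere in Ryr2 kept high PSI values, 0.951 ± 0.00586 in homozygous, 0.918 ± 0.016 in heterozygous and 0.939 ± 0.00726 in wild-type hearts for part 44 (36 bases). Part 128 (21 bases) was at 0.925 ± 0.0319 in homozygous, 0.933 ± 0.00898 in heterozygous and 0.942 ± 0.00528 in wild-type hearts.

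Among all tested parts outside Ttn and outside joined gene identifiers, the 5 genes whose PSI ran most like that of the Ryr2 exon over the 9 libraries had Pearson r from 0.985 to 0.991, as a description over libraries that fall into 3 genotypes. They were Ttc28 part 20, 2310002L09Rik part 1, Ank3 part 118, Lpin2 part 36 and Gm29015 part 2. Ank3 part 118 came nearest in level, at 0.421 ± 0.0139 in homozygous, 0.0906 ± 0.0136 in heterozygous and 0.0156 ± 0.000981 in wild-type hearts (SD, n = 3 each). Ttc28 part 20 stayed low, at 0.0869 ± 0.00266 in homozygous, 0.0074 ± 0.00837 in heterozygous and 0.00223 ± 0.00386 in wild-type hearts. 2310002L09Rik part 1 had a PSI of 0.999 ± 0.00209 in homozygous, 0.157 ± 0.117 in heterozygous and 0.0552 ± 0.0488 in wild-type hearts.

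The next question was whether the genes changed in level. In homozygous against wild-type hearts 0 of the 8 genes were called by edgeR's quasi-likelihood test at an adjusted p under 0.05, where 4.39% of all 22049 genes tested were called, and 1 of the 8 had an unadjusted p under 0.05, where 22.7% of all genes did. In heterozygous against wild-type hearts 0 of 8 were called, where 0% of all genes were called, and in homozygous against heterozygous hearts 0 of 8, where 0.948% were called. The members' log2 fold changes in homozygous against wild-type hearts had a median of -0.18, with 2 of 8 above 0, beside a median of -0.00296 over all genes tested. Per length, Casq2 and Hrc were the most abundant members, with 138 and 132 CPM per kb on the median constant part as a mean of 9 libraries, and the ranges over libraries of this pair overlapped (103 to 162 and 120 to 152). Jph2 followed at 78.1 CPM per kb and Trdn at 28.7, then Ryr2 at 20.6 and Asph at 8.80, with overlapping ranges between Trdn and Ryr2 and between Ryr2 and Asph. Jph1 at 2.89 and Fkbp1b at 0.248 CPM per kb were apart from the rest.

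Ryr2 had the lowest level in homozygous hearts, and the difference fell just outside the threshold. It had 757, 579.5 and 730.5 CPM in the homozygous libraries, 1100, 686 and 1098 CPM in the heterozygous ones, and 1169, 926 and 1349 CPM in the wild-type ones. The homozygous libraries did not reach the wild-type ones, while heterozygous library 2 lay within the homozygous range and the others with the wild-type ones. The log2 fold change was -0.74 in homozygous against wild-type hearts (SE 0.192, adjusted p = 0.0557), -0.48 against heterozygous hearts (SE 0.191, adjusted p = 0.293) and -0.26 in heterozygous against wild-type hearts (SE 0.191, adjusted p = 1), where leaving out heterozygous library 2 or 3 gave -0.06 or -0.36. The call depended on the settings. Under 8 of 17 alternatives the first difference passed, among them DESeq2, a fit of only the groups compared, and leaving out heterozygous library 2 or 3 (adjusted p = 0.018 and 0.0494). Its value ran from -0.87 to -0.60. In the libraries of the lower number range, with its lone wild-type library, the value was -0.77 (adjusted p = 0.284).

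The lower read density of Ryr2 in homozygous hearts was not even along the transcript. In the 112 constant parts (mean PSI of at least 0.95), which cover 16.76 kb, the log2 ratio of homozygous to wild-type reads was -0.97 in the first 3 kb from the 5′ end, -1.13 and -1.09 in the next stretches of 3 kb, -0.89 from 9 to 12 kb and -0.47 in the remainder. The heterozygous ratio was flatter, between -0.17 and -0.28 over the same stretches. All but 1 part lay below 0 in homozygous hearts (111 of 112) and all 112 in heterozygous hearts. The exception, part 1, is 1 base long and had at most 0.64 CPM per kb in any library. The last stretch had 45.5, 40.7 and 45.5 CPM per kb in the homozygous libraries, 52.7, 43.4 and 53.6 in the heterozygous ones and 67.0, 52.3 and 62.8 in the wild-type ones, without overlap between homozygous and wild-type. Part 2 within it (1509 bases) did overlap, at 54.5, 61.5 and 57.4 in homozygous and 77.8, 59.3 and 61.8 in wild-type libraries. The log2 ratio of part 2 was -0.20 for homozygous and -0.26 for heterozygous over wild-type hearts.

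**Figure D2:**
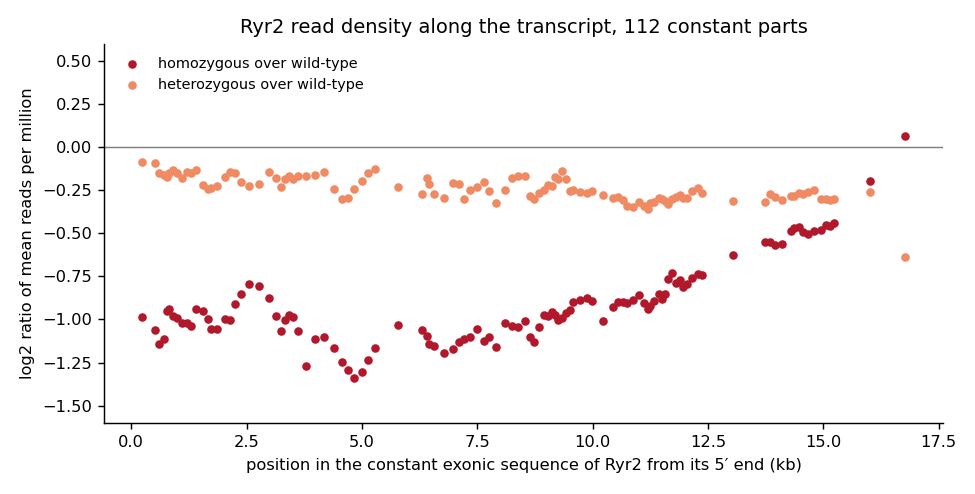
Log2 ratio of mean CPM in 112 constant parts of Ryr2, homozygous over wild-type and heterozygous over wild-type, against position in kb of constant exonic sequence from the 5′ end. Homozygous values run near -1 over the first 9 kb and rise to -0.20 in part 2 towards the 3′ end. Heterozygous values up to there lie between 0 and -0.36. The last point is part 1, of 1 base with few reads, at 0.07 for homozygous and -0.64 for heterozygous hearts.

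The slope was shared by other genes of the same libraries. The log2 ratio of read density in the 5′ over the 3′ side of Ryr2, split at the middle of its constant sequence, was -1.57, -1.80 and -1.59 in the homozygous libraries, -0.97, -1.63 and -0.99 in the heterozygous ones, and -1.41, -1.38 and -0.93 in the wild-type ones. The lowest heterozygous value came from library 2, the library with the lowest Ryr2 level of its group. Over 9466 genes the median of this ratio was -0.20, -0.46 and -0.15 in the homozygous, -0.05, -0.20 and 0.04 in the heterozygous, and -0.16, -0.01 and 0.04 in the wild-type libraries. For Ryr2 the ratio differed by -0.42 in homozygous against wild-type hearts (SE 0.211, limma adjusted p = 0.258), 0.04 in heterozygous against wild-type and -0.46 in homozygous against heterozygous hearts (adjusted p = 0.351), beside a median of -0.22 over all genes and of -0.39 over the 209 genes with at least 10000 constant bases in the first of these. Among those 209 long genes 83 had a lower value than Ryr2, and 16% of all genes were at or below it. In homozygous against heterozygous hearts the median of the long genes was -0.34. There 58 of the 209 had a lower value than Ryr2, and 8.67% of all genes were at or below it. All 7 members that could be measured had a lower ratio in homozygous than in wild-type hearts, from -0.13 in Trdn and Asph to -0.42 in Ryr2, and 0 of them were called, where 0.0423% of all genes were called. In Asph the ratio itself was above 0 in every library (1.86 to 2.35). The constant parts of Asph and Trdn lie on both sides of their early ends, so in these genes end use also enters the ratio. In the other comparisons 0 members were called too, where 0.0106% (heterozygous against wild-type) and 0% (homozygous against heterozygous) of all genes were called. Counted on the 3′ side of the constant parts alone, Ryr2 had a log2 fold change of -0.69 in homozygous against wild-type hearts (SE 0.168, edgeR adjusted p = 0.0348) and was then called.

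No change was called in Fkbp1b or the junctophilins. Fkbp1b had few reads, 104 to 155 in homozygous, 82 to 126 in heterozygous and 129 to 225 in wild-type libraries. Its level was 0.499, 0.424 and 0.373 CPM in homozygous, 0.283, 0.390 and 0.295 CPM in heterozygous and 0.724, 0.413 and 0.451 CPM in wild-type libraries. Its log2 fold change was -0.29 in homozygous (SE 0.278, adjusted p = 0.578) and -0.71 in heterozygous against wild-type hearts (SE 0.28, adjusted p = 1). Wild-type library 1 set the homozygous value to a large extent, since that value became 0.00 without it. Every heterozygous library lay below every wild-type one. Jph2 had 355, 348 and 334 CPM in homozygous, 437, 368 and 423 CPM in heterozygous and 366.5, 359.6 and 420.5 CPM in wild-type libraries. The homozygous libraries were the 3 lowest of the 9, and the differences were -0.15 against wild-type (adjusted p = 0.393) and -0.24 against heterozygous hearts (adjusted p = 0.278) on the log2 scale. Its 1 tested part (part 7) had a mean PSI of 0.942 in homozygous, 0.943 in heterozygous and 0.952 in wild-type hearts. Jph1, the skeletal-type junctophilin, was low at 12.0, 10.3 and 14.2 CPM in homozygous, 15.1, 10.7 and 14.8 CPM in heterozygous and 13.3, 13.4 and 15.7 CPM in wild-type libraries, which overlap.

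**Figure D3:**
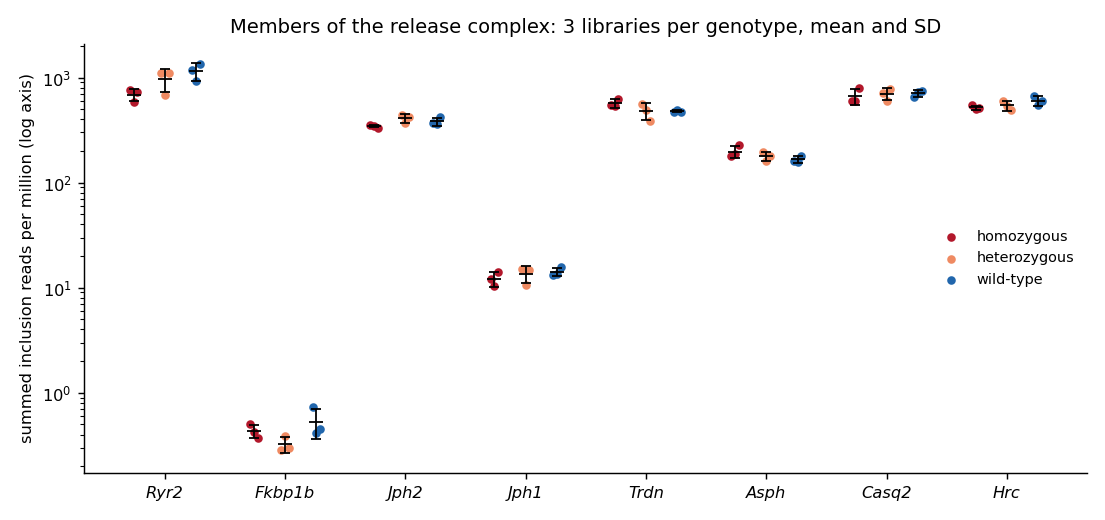
Summed inclusion CPM of the 8 genes on a log axis, with 1 point per library and the mean and SD of 3 libraries for homozygous, heterozygous and wild-type hearts. Ryr2 lies lower in the homozygous libraries (579.5 to 757) than in the wild-type ones (926 to 1349). Jph2 also lies lower there and Trdn lies higher, each without overlap between these groups but by narrower margins.

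Casq2 and Hrc, the genes of the proteins that hold calcium inside the store, were abundant, and neither was called. Casq2 had 599, 599 and 801 CPM in homozygous, 707, 603 and 785 CPM in heterozygous and 650, 736 and 745 CPM in wild-type libraries, so the genotypes overlapped. Its log2 fold change was -0.09 in homozygous against wild-type hearts (adjusted p = 0.736), and the sign turned under 2 alternatives. Hrc had 544, 500 and 512 CPM in homozygous, 599.8, 539 and 486 CPM in heterozygous and 666, 543 and 595 CPM in wild-type libraries. Homozygous library 1 reached the lowest wild-type library, and the difference was -0.21 on the log2 scale (SE 0.103, adjusted p = 0.246). The parts with the smallest p for usage in these genes and in Jph1 and Fkbp1b (Casq2 part 4, Hrc part 1, Jph1 part 3 and Fkbp1b part 5) had log2 usage differences of -0.22, -0.31, 0.25 and -0.67 in homozygous against wild-type hearts, each with an adjusted p of 1.

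Triadin has an early end and a late one. In GENCODE the short form Trdn-208 ends in part 16 and has 277 residues, Trdn-202 with 293 and Trdn-207 with 305 residues end in parts 18 to 22, and the long form with 693 residues runs to part 51. In all genotypes the early end was the denser one. The density of part 16 was 10.8, 11.7 and 11.0 times that of part 51 in the homozygous libraries, 13.1, 12.6 and 11.1 times in the heterozygous ones and 14.2, 11.9 and 13.3 times in the wild-type ones. All homozygous values lay below all wild-type values, by a mean of 1.96 (exact two-sided permutation p = 0.1, the smallest that 3 against 3 libraries allow, and 0.171 adjusted over 12 such comparisons). On the log2 scale the ratio of the means was -0.23. Part 51 (2331 bases) had means of 8.09 CPM per kb in homozygous, 6.93 in heterozygous and 6.90 in wild-type hearts. Part 50, just before it, had 22.7, 18.5 and 19.3. The factors above are therefore not ratios of short to long transcripts. Part 16 lies 5′ of part 51, and the 5′ to 3′ density ratio given above differed between the same groups by -0.13 for Trdn and by a median of -0.22 over all genes. The Trdn value is taken over parts on both sides of the early ends, so end use enters it. The part of the 5′ to 3′ slope in the end ratio was not tested. Junction reads that pass over part 16 towards the later ends were 5.26, 5.61 and 6.48 CPM in homozygous, 5.21, 4.21 and 3.50 CPM in heterozygous and 4.17, 4.03 and 3.84 CPM in wild-type libraries, again without overlap between homozygous and wild-type (exact permutation p = 0.1).

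**Figure D4:**
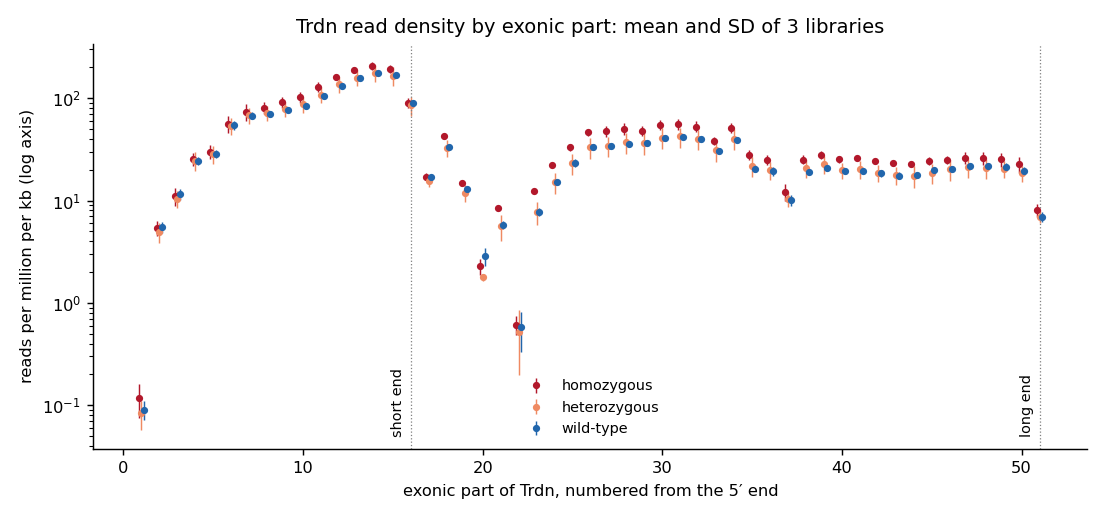
Read density (CPM per kb, log axis) of the exonic parts of Trdn in transcript order, as mean and SD of 3 libraries for homozygous, heterozygous and wild-type hearts. Density is highest in parts 12 to 15, falls after the short end at part 16 and stays several times lower up to the long end at part 51, in all 3 genotypes.

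The tested parts of Trdn fell short of a call. The gene as a whole had 546, 533.5 and 629 CPM in the homozygous libraries, 563, 489 and 386 CPM in the heterozygous ones and 473, 492 and 472 CPM in the wild-type ones, with a log2 fold change of 0.25 in homozygous against wild-type hearts (SE 0.126, adjusted p = 0.268). Part 2, near the 5′ end, had the smallest p, with a PSI of 0.846, 0.818 and 0.799 in homozygous, 0.836, 0.867 and 0.931 in heterozygous and 0.945, 0.917 and 0.929 in wild-type libraries. The homozygous libraries lay below the wild-type ones and overlapped the heterozygous ones, and the difference was -0.11 (SE 0.03, limma adjusted p = 0.356). The PSI of the short end, part 16, was 0.714, 0.680 and 0.697 in homozygous, 0.749, 0.744 and 0.745 in heterozygous and 0.754, 0.769 and 0.781 in wild-type libraries. The difference was -0.07 between homozygous and wild-type hearts (adjusted p = 0.684), with the heterozygous libraries between the others. The 18-base exon printed above was at 0.908, 0.882 and 0.899 in homozygous, 0.912, 0.929 and 0.924 in heterozygous and 0.941, 0.958 and 0.947 in wild-type libraries. These values stood in 3 separate ranges, lowest in homozygous hearts, yet the difference of -0.05 between homozygous and wild-type hearts was not called (SE 0.0178, adjusted p = 0.523). For usage, 0 of the 51 Trdn parts were called in any comparison. Its ends in parts 16, 17, 19, 22 and 51 differed by -0.25, -0.24, -0.06, -0.16 and -0.02 log2 units between homozygous and wild-type hearts, each with an adjusted p of 1.

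Asph makes a junctin end, a middle end and an enzyme end. In GENCODE the junctin forms, Asph-206 with 207 residues and another with 245, end in part 29, transcripts of 215 to 310 residues such as Asph-209 and Asph-204 end in part 15, and the hydroxylase forms such as Asph-202 with 741 residues end in part 2. In every library the junctin end was the densest of the 3. Shares by density are not shares of transcripts. In wild-type hearts the enzyme end (4367 bases) had a mean of 3.31 CPM per kb, against 8.39 in part 3 before it. By read density, part 29 made up 79.2, 81.8 and 81.9% of the 3 ends in the homozygous libraries, 73.8, 77.9 and 74.3% in the heterozygous ones and 75.0, 78.4 and 75.7% in the wild-type ones. The homozygous libraries were the 3 highest of the 9, with a mean 4.64 percentage points above wild-type hearts (exact two-sided permutation p = 0.1, the smallest possible, 0.171 adjusted over the 12 comparisons). The density of the junctin end was 43.8, 58.9 and 60.9 CPM per kb in homozygous, 35.8, 38.9 and 32.7 in heterozygous and 34.0, 35.7 and 34.7 in wild-type libraries. The enzyme end stood at 3.61, 3.51 and 4.02 in homozygous, 4.03, 3.39 and 3.62 in heterozygous and 3.29, 3.40 and 3.23 CPM per kb in wild-type libraries. Parts 3 to 13, the enzyme exons before it, each had a lower mean density in homozygous than in wild-type hearts. Part 13 had means of 4.15 CPM per kb in homozygous, 6.29 in heterozygous and 5.53 in wild-type hearts, with overlap between homozygous and wild-type libraries. Usage of parts 3 to 13 differed by -0.32 to -0.67 log2 units between these groups, without a call. The groups did not overlap at the junctin end between homozygous and the other hearts, but the usage test gave 0.40 log2 units for part 29 in homozygous against wild-type hearts with an adjusted p of 1.

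**Figure D5:**
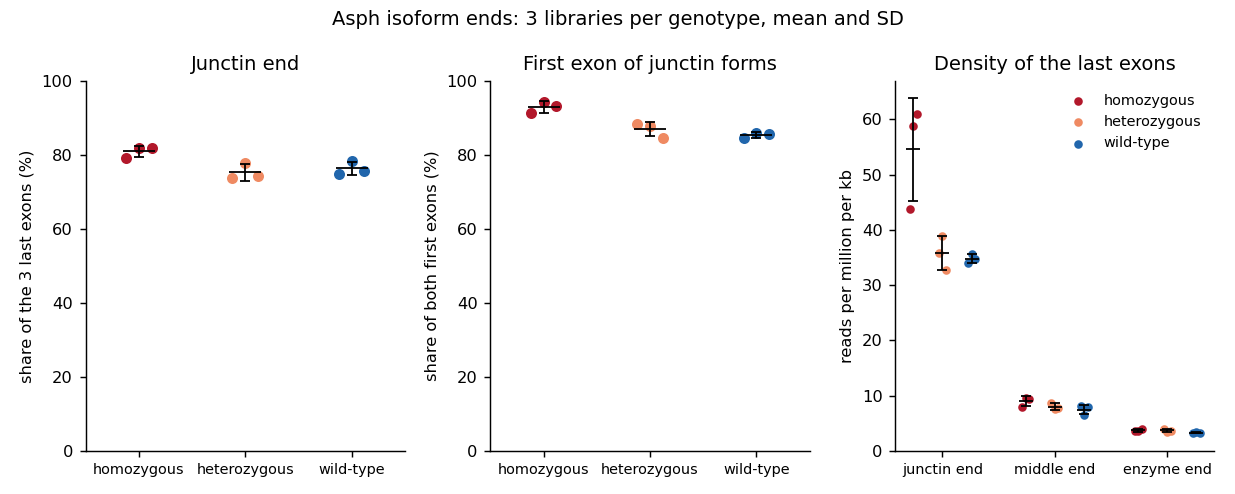
Share of the junctin end among the 3 last exons of Asph, share of the first exon of part 39 among both first exons (percent, by read density), and density of the 3 last exons in CPM per kb, with 1 point per library and the mean and SD of 3 libraries for homozygous, heterozygous and wild-type hearts. The homozygous libraries are the highest in both shares, at 79.2% or more and 91.2% or more.

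At the other end of Asph a first exon was called. Across the 269 member parts tested for usage, 2 were called in homozygous against wild-type hearts (adjusted p under 0.05 and at least 0.5 log2 units), the 24-base Ryr2 exon and Asph part 41, where 0.167% of all 253611 parts were called. In homozygous against heterozygous hearts 1 was called, the Ryr2 exon, where 0.0757% of all parts were called, and in heterozygous against wild-type hearts 0, where 0.026% were called. At an unadjusted p under 0.05 there were 19 of the 269 in homozygous against wild-type hearts (4.5% of all parts), 27 in homozygous against heterozygous hearts (3.6%) and 2 in heterozygous against wild-type hearts (1.05%). Parts of the same gene are not independent here either. Part 41 (306 bases) is the first exon of that longer junctin form, Asph-202 and Asph-204, and part 39 (183 bases) that of Asph-206 to Asph-209. Part 41 had 178, 114 and 180 reads in the homozygous libraries, 245, 230 and 329 in the heterozygous ones and 284, 288 and 309 in the wild-type ones. The homozygous libraries were below all others, and its usage was lower by a log2 value of -1.08 in homozygous against wild-type hearts (edgeR adjusted p = 0.0151) and -0.84 against heterozygous hearts (adjusted p = 0.441). Usage is relative to the rest of the gene. The density of part 41 itself had means of 1.18 CPM per kb in homozygous, 1.90 in heterozygous and 2.09 in wild-type hearts. It lies at the 5′ end of the gene, and the share of the 5′ to 3′ slope in its values was not tested. In simulated data the usage test also called many parts whose own counts were unchanged. The call was lost under 8 of 15 alternatives, 5 of which leave out 1 library (homozygous 2 or 3, or any wild-type one), when the adjusted p was 0.0507 to 0.258, with values between -1.19 and -0.90. Part 39 made up 91.2, 94.4 and 93.3% of both first exons in homozygous, 88.3, 87.9 and 84.7% in heterozygous and 84.5, 86.0 and 85.8% in wild-type libraries (exact permutation p = 0.1 for homozygous against wild-type).

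The other Asph parts at the junctin end and first exon had higher mean PSI values in homozygous hearts without a call. Part 39 had a PSI of 0.866, 0.932 and 0.901 in homozygous, 0.837, 0.821 and 0.776 in heterozygous and 0.771, 0.814 and 0.816 in wild-type libraries. It had the smallest p of the gene (difference 0.10, SE 0.0317, limma adjusted p = 0.47). The 42-base exon printed above was at 0.785, 0.846 and 0.842 in homozygous, 0.746, 0.794 and 0.730 in heterozygous and 0.716, 0.780 and 0.741 in wild-type libraries. Its homozygous values lay above the wild-type ones and overlapped the heterozygous ones, with a difference of 0.08 from wild-type hearts (adjusted p = 0.681). Parts 28 and 29 of the junctin end had PSI differences of 0.15 and 0.12 between homozygous and wild-type hearts, and part 15 of the middle end one of 0.12, with adjusted p values of 0.600, 0.652 and 0.689. The whole gene had 178, 185 and 228 CPM in homozygous, 194, 159 and 181 CPM in heterozygous and 162, 158 and 179 CPM in wild-type libraries. Its log2 fold change was 0.25 in homozygous against wild-type hearts (SE 0.114, adjusted p = 0.228).

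Beyond the 8 genes, a list of 26 other genes of calcium release held 23 that were tested for expression. In homozygous against wild-type hearts 1 of them rose and 1 fell, where 4.39% of all genes were called, and the median log2 fold change was 0.06. Casq1, the skeletal calsequestrin, rose to 46.3 ± 6.0 CPM in homozygous hearts, against 9.68 ± 2.82 CPM in heterozygous and 7.29 ± 1.61 CPM in wild-type hearts (SD, n = 3 each, log2 fold change 2.67 against wild-type, SE 0.221, edgeR adjusted p = 0.000171, and 2.26 against heterozygous hearts, adjusted p = 0.00119). Pde4d, a phosphodiesterase found in complex with the release channel, fell to 8.41 ± 1.15 CPM in homozygous hearts, against 11.9 ± 2.14 CPM in heterozygous and 13.1 ± 0.259 CPM in wild-type hearts (log2 fold change -0.64 against wild-type, adjusted p = 0.0309). In heterozygous against wild-type hearts 0 of the 23 were called, and 0 of the list's 89 tested parts were called for PSI in any comparison. Over all parts 0.413% were called in homozygous against wild-type, 0.264% in homozygous against heterozygous and 0.0755% in heterozygous against wild-type hearts. Markers of skeletal muscle summed to 2952 to 4003 CPM in homozygous, 1894 to 2395 CPM in heterozygous and 1862 to 2060 CPM in wild-type libraries, with 8 of 9 measured. That sum moved with Acta1, at a mean of 1437 CPM in homozygous, 289 CPM in heterozygous and 204 CPM in wild-type hearts, while the skeletal myosins Myh2 and Myh1 averaged at most 0.135 CPM in any genotype and the skeletal receptor Ryr1 at most 0.443 CPM.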

How the data were processed

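Total RNA from hearts was sequenced with paired reads of 150 bases from a stranded kit, per the labels' protocols. The authors deposited inclusion counts (reads on an exonic part), exclusion counts (junction reads that skip it) and PSI as a fraction, per the file headers, on GRCm39. Per the submitters' processing notes, Salmon 1.2.1 and cutadapt 1.8 were among the tools, with no role stated. Whether counting used the strand is not given in the sources used here. Deposited PSI equals inclusion reads over part length plus 148 bases, divided by that value plus exclusion reads over 148 bases (largest gap 5e-07 in the 8 genes). Density divides CPM by part length plus 148 bases.

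PSI was tested with limma 3.58.1 on parts with 10 or more reads in each library whose PSI reached 0.05 in some library and was at most 0.95 in some library. Part usage was tested with diffSpliceDGE and summed inclusion counts per gene with quasi-likelihood tests in edgeR 4.0.16 (R 4.3.3), with DESeq2 1.42.0 as an alternative. Every fit took all 9 libraries, with Benjamini-Hochberg adjustment over all features. The 5′ to 3′ ratio (9466 genes, 5′ and 3′ sides of the constant parts, pseudocount 0.5) and counts on the 3′ side were added after seeing the data. The PSI, usage and expression tests of homozygous against wild-type hearts were tested on simulated data, and the test of the 5′ to 3′ ratio was not. On those data the PSI test recovered 31.5% of 200 parts shifted by 0.3, so parts without a PSI call may still have changed. The usage test recovered 97.89% of 190 parts changed 4-fold. It also called 114 parts whose own counts had not been changed, and whether these lay in the same genes as changed parts was not examined. Alternatives were other filters, scales, scalings, tools and covariates, and leaving out each library.

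The 8 genes, the other gene lists and the parts named were chosen with earlier results of these data known. The named parts are the 24-base Ryr2 exon with its neighbours, every part called, the part with the smallest p in other genes, and the Trdn and Asph ends. Further parts and per-library values were picked after they were seen. Exons came from GENCODE M21, which is on GRCm38, and were matched within each gene by length and spacing (all 133 exons of Ryr2, 50 of Trdn and 44 of Asph matched), so no coordinates were converted.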

Additional observations from a re-analysis of the deposited data

How the results depend on the processing

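The PSI call of the 24-base Ryr2 exon in homozygous against wild-type hearts was made under all 17 alternatives that kept 2 or more wild-type libraries, from 0.33 to 0.35, with adjusted p from 9.15e-06 to 0.00149. Against heterozygous hearts the count of PSI calls was 1 and went to 0 with the libraries of the lower name numbers only. The count of parts off the heterozygous midpoint (1) went to 0 with those libraries only, with the replicate block, on the logit scale and at a PSI threshold of 0.2, and ran from 0 to 1 with each library left out. Usage calls in homozygous against wild-type hearts (2) were 1 with the library number covariate, 1 with the lower name numbers only, 5 with the replicate block and 1 to 3 with each library left out. In heterozygous against wild-type hearts they were 1 with the replicate block (0 without it), and in homozygous against heterozygous hearts (1) 3 with the replicate block, 2 with limma's diffSplice and 1 to 4 with each library left out, 4 without heterozygous library 2. Expression calls in homozygous against wild-type hearts (0) became 1, which was Ryr2, with the replicate block, with only the groups compared, in DESeq2, without a low-count filter, on parts with a mean PSI of at least 0.95 and on the 3′ side, and ran from 0 to 1 with each library left out. In homozygous against heterozygous hearts they became 1 with the replicate block and without the filter. Same-numbered libraries of different genotypes had deviations that correlated by -0.06 to 0.193 in gene levels, so the numbers were not taken as pairs.

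Signs turned in 41 of 692 values under an alternative, all small and uncalled, and the cause was not tested. With the library number covariate the log2 usage of Trdn part 19 was 0.0014, of Trdn part 51 0.13 and of Asph part 15 -0.10, and the log2 fold changes were 0.0609, 0.0485 and 0.0124 for Casq2 (homozygous and heterozygous against wild-type, homozygous against heterozygous) and -0.0831 for Trdn (heterozygous against wild-type). With the lower name numbers only they were 0.14 for Trdn part 51, -0.13 for Asph part 15, and 0.0261, 0.0089 and 0.0173 for Casq2. The replicate block gave -0.0058 and the missing low-count filter -0.00078 for Trdn in heterozygous against wild-type hearts, limma's diffSplice 0.13 for Asph part 2, parts of high PSI -0.0498 and the 3′ side -0.0596 for Asph (homozygous against heterozygous), and the 3′ side 0.0019 for Casq2 (heterozygous against wild-type). With each library left out, usage ran from -0.42 to 0.23 for Trdn part 22, -0.10 to 0.0426 for Trdn part 51 and -0.0794 to 0.10 for Asph part 15, and the log2 fold change from -0.44 to 0.0022 for Fkbp1b, all in homozygous against wild-type hearts. In heterozygous against wild-type hearts it ran from -0.13 to 0.13 for Trdn, -0.12 to 0.071 for Casq2 and -0.15 to 0.0778 for Jph1, and the Ryr2 5′ to 3′ ratio from -0.0744 to 0.26. In homozygous against heterozygous hearts it ran from -0.22 to 0.0252 for Casq2 and -0.13 to 0.0175 for Hrc. Read depth limits Fkbp1b, with at most 225 reads a library.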
